A study of Canis lupus familiaris with 3 samples.

Results

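The genes described here encode developmental transcription factors and nuclear receptors, the DNA-binding proteins that set and keep cell identity. They were chosen by gene symbol, as members of the SOX, forkhead, HOX, PAX, LIM, MEIS, PBX, T-box, sine oculis, DLX, IRX, NKX, GATA, KLF, C/EBP, ETS and nuclear receptor families, with KLF8 and GATA6 left out. The choice was made with earlier results of these data known. Of 101 such symbols on the array, 82 had a spot with a value on all 3 arrays, out of 5508 named genes measured in the same way. Of the 82, 78 are factors of these families and 4 are not: the pattern of letters also took in PAX8-AS1, SOX9-AS1 and SOX2-OT, which are noncoding RNAs named after factor genes, and THRAP3, a protein of RNA processing and transcription. No C/EBP gene, and no MSX gene, was among the 82.

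The RNA came from MDCK cells, a dog kidney line of epithelial origin. MDCK-E47 cells, transfectants that carry the helix-loop-helix factor E47, were compared with MDCK-CMV control cells, both grown in the same serum-containing medium. E47 is encoded by TCF3, and the series title names it as a repressor of E-cadherin. Amplified RNA of E47 cells and of control cells was hybridised together, in different dyes, to arrays of human cDNA clones. RNA extraction 1 of E47 cells was labelled with Cy5, and extraction 2 was labelled once with Cy5 and once with Cy3, so the 3 arrays hold 2 extractions. Neither the promoter that drives E47 nor the origin of the 2 extractions, from separate cultures or not, is stated in the sources used here. If the cultures were not separate, the p-values measure only the spread between extractions, which may be technical.

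Homeodomain, SOX, forkhead, GATA, KLF and ETS proteins bind short DNA motifs and act in combinations. PBX and MEIS proteins, which share an extended homeodomain, bind DNA together with HOX proteins. Nuclear receptors are factors whose activity can be set by a ligand such as retinoic acid, vitamin D or a fatty acid, and the retinoid X receptors are the shared dimer partners of the retinoic acid, vitamin D, thyroid hormone and PPAR receptors. In kidney, PAX2, PAX8, LHX1 and HNF4 genes are known for their part in forming the tubule.

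All values below are log2 ratios of E47 cells over control cells. That direction is likely but not stated: the labels list E47 cells as the first channel of every array. No label gives the log base, which was taken as 2. Ratios carry no level, so whether a factor was expressed in these cells at all is not known from them, and the number of arrays limits the precision. The arrays gave values for 24771 to 25537 of 27648 spots. Human clones can bind related dog transcripts, which cannot be separated within families as similar as these.

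Among the markers of cell type, all 6 measured epithelial genes fell, with log2 ratios between −3.59 for CDH1, which encodes E-cadherin, and −0.92 for CLDN4. Of the fibroblast and mesenchyme markers, 3 of 3 rose, between 0.68 and 2.85. None of 4 endothelial markers passed the limma test, with 1 at an unadjusted p under 0.05, and of 3 white blood cell markers PTPRC, measured by 1 spot, rose to 1.03. CDH16, the kidney tubule marker measured, had a value of −0.14 and an adjusted p of 0.303. TCF3, the gene of E47 itself, was at −0.27, −0.28 and −0.35 on the 3 arrays, with a mean of −0.29 and an adjusted p of 0.118 in the limma test. It was not higher in the cells labelled E47, and whether its 2 clones cover the sequence transfected is not known, so the labels and the direction rest on no check by that gene. The part of these shifts in the results below was not tested.

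Of the 82 genes, 4 had an adjusted p under 0.05 in the limma test, which is 4.88% against 9.19% of all named genes. RARB, PBX3 and SIX6 were higher in E47 cells, 3 genes where the share over all named genes called higher was 5.34%. KLF4 alone was lower, where the share over all named genes was 3.85%. The other 78 did not pass. Before adjustment 25 (30.5%) had a p under 0.05, of which 9 were higher and 16 lower, against 35.6% of all named genes. The median log2 ratio of the 82 genes was −0.09, against −0.02 for all named genes. It was −0.11 on the array of extraction 1, −0.03 on the Cy3 array of extraction 2 and −0.09 on the Cy5 array. Below 0 on all 3 arrays were 36 genes (43.9%, against 32.8% of all named genes), above 0 on all 3 were 19 (23.2%, against 30.6%) and the sign differed between arrays in 27 (32.9%, against 36.7%). Only 10 genes (12.2%, against 13% of all named genes) had a mean of at least 1.5-fold in either direction, and 4 (4.88%, against 4.76%) of at least 2-fold.

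All 4 calls were lost when the Cy5 array of extraction 2 was left out. None of the 82 then passed the limma test, where 1.98% of all named genes did. An unadjusted p under 0.05 was found for 12 of the 82, against 21.7% of all named genes. The means moved little for RARB at 1.09, KLF4 at −1.16 and PBX3 at 0.82, while SIX6 was at 0.44. The adjusted p was 0.0584 for RARB, 0.0630 for KLF4, 0.0774 for PBX3 and 0.213 for SIX6. Without the Cy3 array of extraction 2, 10 members passed, 4 higher and 6 lower (12.2%, against 16.7%), and RARB, PBX3 and KLF4 were among them. Only Cy5 arrays remain in that setting, so an effect of the dye cannot be told apart in it.

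Nuclear receptors made up 22 of the genes, and 1 of them passed the limma test, against 9.19% of all named genes. The retinoic acid receptor genes RARA, RARB and RARG encode the receptors that bind retinoic acid as dimers with RXR. RARB, itself known as a gene that retinoic acid induces in many cells, gave 1.25 on extraction 1, 0.92 on the Cy3 array of extraction 2 and 0.94 on its Cy5 array. All 3 values lie close together and far above 0. The mean was 1.09 ± 0.12 (moderated SE, n = 2 extractions), which is 2.13-fold higher, with an adjusted p of 0.0292. RARB was measured by 1 clone in 2 spots.

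The other two receptors of retinoic acid did not pass. RARA gave −0.17, 0.13 and −0.03, in the order extraction 1, Cy3 and Cy5 of extraction 2, which holds for all sets of 3 values below. Its mean of −0.06 had an adjusted p of 0.696. RARG was below 0 on each array, at −0.22, −0.14 and −0.23, with a mean of −0.21 and an adjusted p of 0.189. Whether RARB differs from RARA and RARG was not tested.

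Of the 3 retinoid X receptors none passed, and RXRB had the lowest mean of the 82 genes. It gave −3.11, −0.26 and −2.01, so the Cy3 array was far from both Cy5 arrays. RXRB was measured by 1 clone in 2 spots, and further spots of that clone held no value on any array. Its mean of −2.12 ± 1.39 (SD, n = 2 extractions) is 4.36-fold lower, with a moderated SE of 0.52 and an adjusted p of 0.0970, and without the Cy3 array the adjusted p was 0.0393. RXRA, with 3 clones in 10 spots, was below 0 on each array at −0.47, −0.19 and −0.71, with a mean of −0.46 ± 0.08 (moderated SE, n = 2) and an adjusted p of 0.0630. The RXRA dye swap differed by −0.52, which that SE leaves out. Its clones were at −0.62, −0.58 and −0.26. In 1 of the 10 RXRA spots the Cy5 array of extraction 2 read −2.70, and with the median over spots the gene was at −0.42. RXRG, at −0.11, −0.02 and −0.15, had a mean of −0.10 and an adjusted p of 0.453.

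None of the remaining receptors passed. Before adjustment, 2 of all 22 nuclear receptors were higher and 5 lower at a p under 0.05, against 35.6% of all named genes in either direction. HNF4G, a receptor of kidney and gut epithelia, was below 0 on each array at −0.39, −0.74 and −0.32, with a mean of −0.46 ± 0.09 (moderated SE, n = 2) and an adjusted p of 0.0712. NR2C1, an orphan receptor, was nearly equal on the 3 arrays at 0.33, 0.36 and 0.37, with a mean of 0.34 and an adjusted p of 0.0961. NR4A1, a receptor gene induced early after many stimuli, was at −0.49 on both Cy5 arrays and at 0.0048 on the Cy3 array, and its relatives NR4A3 and NR4A2 had means of −0.11 and −0.07. PPARD, a fatty acid sensor, gave −0.43, −0.04 and −0.32. The vitamin D receptor VDR had a mean of −0.18, the estrogen receptor ESR1 of 0.19 and the thyroid hormone receptor THRB of 0.10. PPARG, the fat cell receptor, was at −0.0037, 0.22 and −0.65, and the last value holds 1 of 4 spots at −2.48. The median of the 22 nuclear receptors was −0.10, 11 were below 0 on all 3 arrays and 5 above.

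**Figure D1:**
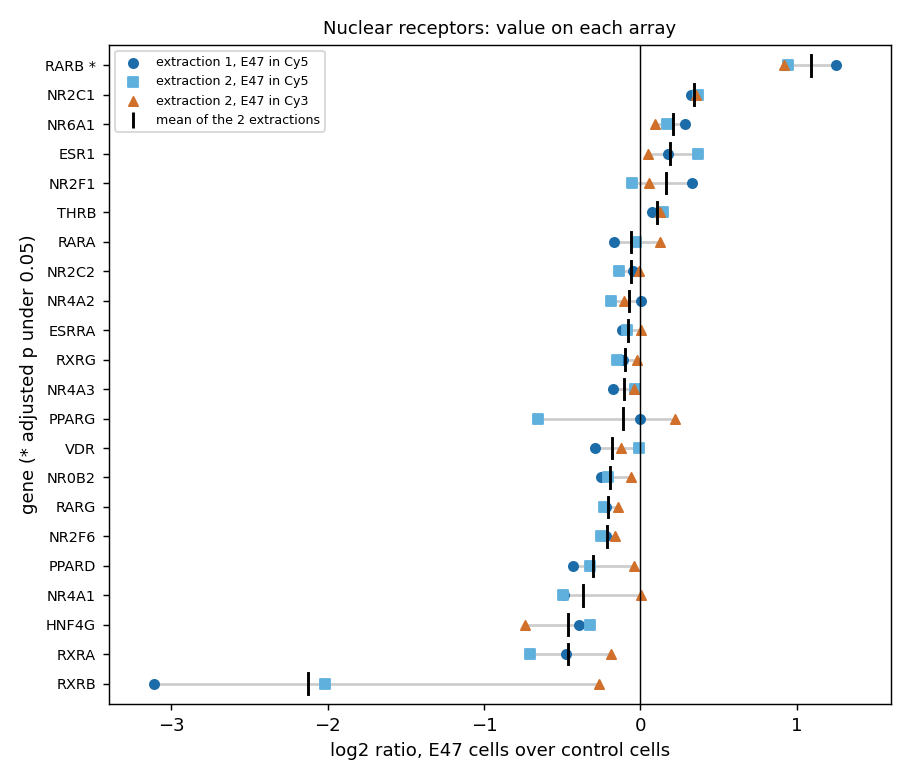
Log2 ratio (E47 cells over control cells, x axis) of the 22 nuclear receptor genes (y axis), with 1 point per array, a grey line over the range of the 3 arrays and a black bar at the mean of the 2 extractions. RARB, marked with an asterisk for an adjusted p under 0.05, lies between 0.92 and 1.25 on the 3 arrays, and RXRB spreads from −3.11 to −0.26.

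The 20 genes of homeobox and paired-domain factors outside the HOX clusters included 2 that rose and none that fell in the limma test, with 3 lower at an unadjusted p under 0.05. Over all named genes 5.34% were called higher and 3.85% lower, and 35.6% had an unadjusted p under 0.05. PBX3, a PBX protein and so a DNA-binding partner of HOX and MEIS proteins, gave 0.94, 0.70 and 0.61. It was well above 0 on each array, the lower pair being that of extraction 2. The mean was 0.80 ± 0.11 (moderated SE, n = 2 extractions), or 1.74-fold higher, with an adjusted p of 0.0417. It was measured by 2 clones in 6 spots, at 0.91 and 0.56, so both clones were above 0. PBX2, its paralog, gave −0.30, −0.11 and −0.24, with a mean of −0.23 and an adjusted p of 0.172.

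SIX6, a homeobox factor known from the eye and the pituitary, gave 0.57, 0.32 and 1.02. The values are above 0 but the dye swap differs by 0.70, more than the size of the mean, which was 0.62 ± 0.09 (moderated SE, n = 2), or 1.54-fold higher, with an adjusted p of 0.0423. The SE does not hold that difference, because the dye swap was averaged first. SIX6 lost its call with the 3 arrays taken as separate values, at an adjusted p of 0.0594, without the Cy3 array of extraction 2, at 0.0545, and with scaled arrays, at 0.0593. It has 1 clone here. A further SIX6 clone, with values on the Cy3 array alone, was left out. SIX3, a close relative, had a mean of −0.13 and an adjusted p of 0.372.

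MEIS genes, whose proteins bind with PBX and HOX proteins, gave no call and differed between clones. MEIS1 was below 0 on each array at −0.72, −0.31 and −0.61, with a mean of −0.59 ± 0.11 (moderated SE, n = 2) and an adjusted p of 0.0631. Its 2 clones were at −0.78 and −0.21. MEIS2, named after its values were seen, had a mean of 0.17 with an adjusted p of 0.243, but its 2 clones stood apart. One gave 1.06, 1.01 and 0.71 and the other −0.25, −0.15 and −0.25, so each clone kept its sign on all 3 arrays and the gene mean describes neither. With the median over spots MEIS2 was at −0.11, and with clones averaged first at 0.37.

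Among the kidney factors of this group, PAX8 gave −0.27, −0.10 and −0.26, with a mean of −0.22 and an adjusted p of 0.177. One PAX8 clone was at −0.52, −0.42 and −0.51 and the other at −0.14, 0.06 and −0.13. PAX2 had a mean of 0.13 and an adjusted p of 0.342, and LHX1, with 1 complete spot, was at −0.41, 0.04 and −0.18. The 7 PAX genes as a whole lay between −0.23 for PAX9 and 0.13 for PAX2. PAX6, the eye and pancreas factor, was near 0 on each array at 0.0058, 0.03 and 0.07.

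The remaining homeobox genes did not pass. IRX3, an Iroquois factor, gave 0.64, 0.11 and 0.47, with a mean of 0.47 and an adjusted p of 0.106. NKX2-1, the thyroid and lung factor, gave −0.63, −0.12 and −0.44, with a mean of −0.45 and an adjusted p of 0.110. LHX3, a LIM factor of the pituitary, was nearly equal on the 3 arrays at −0.41, −0.49 and −0.44, with an adjusted p of 0.0699. The median of the 20 genes was −0.08, with 8 below 0 on all 3 arrays and 5 above.

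None of the 11 HOX genes passed the limma test, where 9.19% of all named genes did. The HOX genes cover all 4 clusters, with 1 HOXA, 4 HOXB, 2 HOXC and 4 HOXD genes, and their adjusted p-values ran from 0.0557 to 0.928. Before adjustment 2 of the 11 had a p under 0.05, against 35.6% of all named genes. HOXD12, of the 5′ end of its cluster, was the lowest at −0.49, −0.15 and −0.89, with a mean of −0.50 ± 0.08 (moderated SE, n = 2). Its dye swap differed by −0.74, more than the size of the mean, and the SE leaves that difference out. HOXC13 was the highest at 0.45, 0.16 and 0.29, with a mean of 0.34. HOXD9 was below 0 on each array at −0.46, −0.10 and −0.24. The median of the HOX genes was −0.12, with 6 below 0 on all 3 arrays and 2 above. Means of both signs occurred within the HOXB and HOXD clusters. HOXB7, the HOXB gene above 0, had a mean of 0.02 from arrays that differed in sign. HOXD8, the HOXD gene above 0, was at 0.14.

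**Figure D2:**
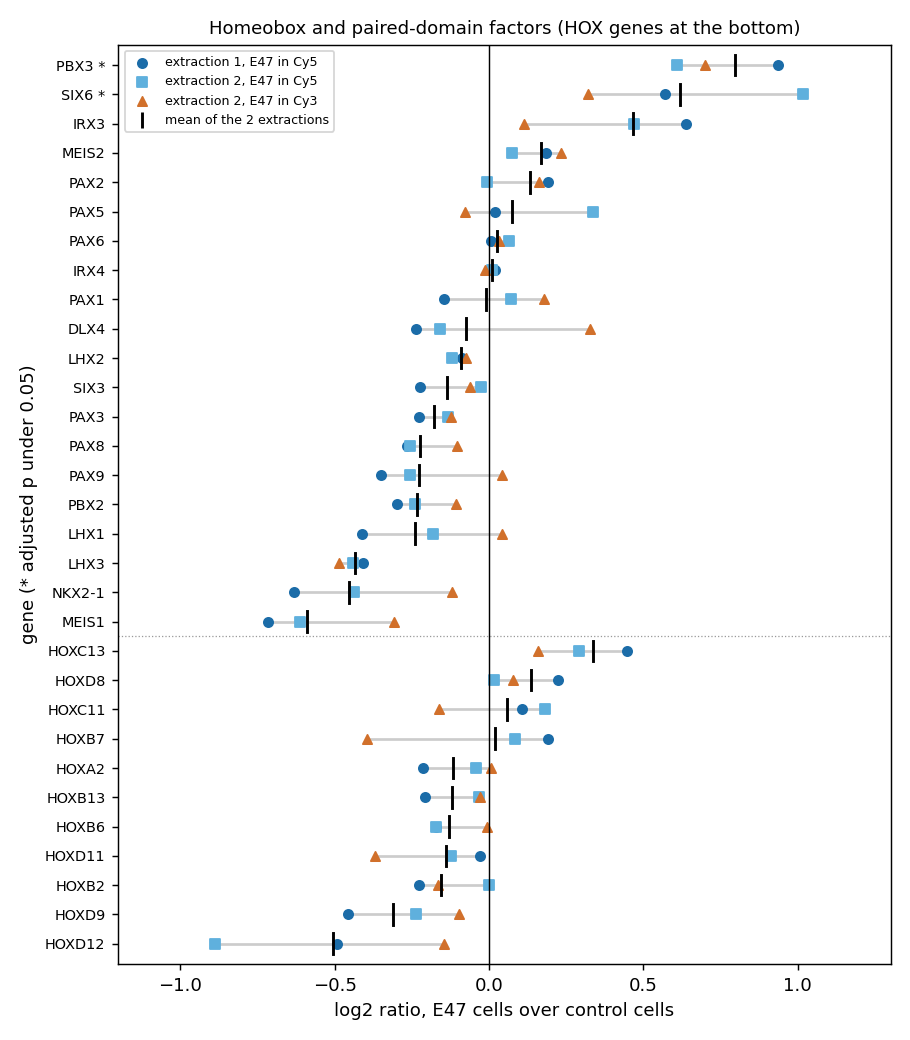
Log2 ratio (E47 cells over control cells, x axis) of 20 homeobox and paired-domain genes above the dotted line and 11 HOX genes below it, with 1 point per array, a grey line over their range and a black bar at the mean of the 2 extractions. PBX3 and SIX6 carry an asterisk for an adjusted p under 0.05, and SIX6 runs from 0.32 to 1.02 over the 3 arrays.

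KLF4, a Krüppel-like zinc finger factor of epithelial differentiation and of pluripotent cells, fell. Its values were −1.37, −0.94 and −0.92, so it was far below 0 on each array, and the dye swap of extraction 2 differed by 0.016. The mean was −1.15 ± 0.14 (moderated SE, n = 2 extractions), or 2.22-fold lower, with an adjusted p of 0.0349. It was measured by 1 clone in 2 spots. Epithelial markers fell on the same arrays, as given above, and their part in the KLF4 value was not tested.

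The other 5 KLF genes did not pass, where 9.19% of all named genes did. KLF9, a factor induced by glucocorticoid and thyroid hormones, gave −1.24, −0.08 and −0.52, with a mean of −0.77 ± 0.67 (SD, n = 2) and an adjusted p of 0.147. KLF5, a factor of dividing epithelial cells, was above 0 in the mean of its spots on each array at 0.26, 0.55 and 0.05, with a mean of 0.28 and an adjusted p of 0.127. On the Cy5 array of extraction 2 its spots differed in sign, at 0.41, 0.50, −0.29 and −0.41. KLF1, known from red blood cell precursors and with 1 complete spot here, was at −0.24, −0.44 and −0.31. KLF11 had 3 clones, 2 of them at −0.23 and −0.22 and 1 at 0.19.

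Of 7 ETS family genes none passed the limma test, and 2 had an unadjusted p under 0.05. Among all named genes 9.19% passed and 35.6% had an unadjusted p under 0.05. ETV1 was above 0 on each array at 0.77, 0.40 and 0.64, with a mean of 0.64 ± 0.11 (moderated SE, n = 2), or 1.56-fold, and an adjusted p of 0.0544. It passed in 5 of 12 settings of the analysis. ETV1, ETV4 and ETV5 are close paralogs that act downstream of receptor tyrosine kinases. ETV4 and ETV5 had means of −0.17 and −0.08, and the repressor ETV6 gave −0.26, −0.14 and −0.34.

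The 4 SOX genes gave no call in the limma test, but 3 of them had means below −0.4 and 2 an unadjusted p under 0.05. Among all named genes 9.19% were called and 35.6% had an unadjusted p under 0.05. SOX9, a factor of cartilage and of ducts, was steady at −0.56, −0.44 and −0.38, with a mean of −0.48 ± 0.09 (moderated SE, n = 2) and an adjusted p of 0.0676. SOX2, a factor of stem cells, gave −0.99, −0.06 and −0.68, and SOX10, a factor of neural crest, −2.60, 0.04 and −0.81 from 1 spot. In both, the Cy3 array was near 0 while the Cy5 arrays were low. Their adjusted p-values were 0.108 and 0.179. SOX12 had a mean of 0.0089.

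The 4 forkhead, 3 T-box and 1 GATA genes gave no call in the limma test, and of these FOXJ3 alone had an unadjusted p under 0.05. Over all named genes the shares were 9.19% called and 35.6% at an unadjusted p under 0.05. FOXJ3 was above 0 on each array at 0.25, 0.23 and 0.33, with an adjusted p of 0.133, and FOXN3 gave −0.33, 0.08 and −0.30. The 3 T-box genes had means between −0.15 for TBX21 and 0.08 for TBX15. GATA2 was at 0.22, 0.22 and 0.13, with an adjusted p of 0.197. A further GATA2 clone without a value on the Cy5 array of extraction 2 read −4.14 and −3.99 on extraction 1 and −0.0072 and −0.22 on the Cy3 array. With that clone kept, the mean of GATA2 turned to −0.92, with an adjusted p of 0.301.

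**Figure D3:**
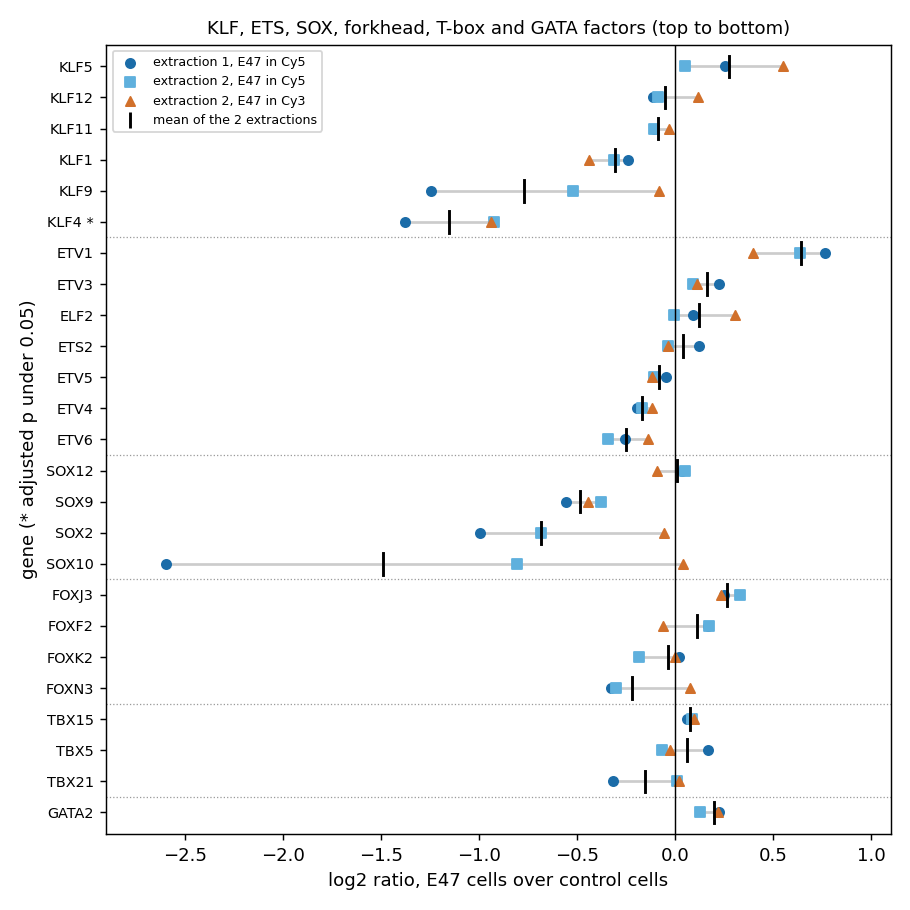
Log2 ratio (E47 cells over control cells, x axis) of KLF, ETS, SOX, forkhead, T-box and GATA genes (y axis, families divided by dotted lines), with 1 point per array, a grey line over their range and a black bar at the mean of the 2 extractions. KLF4 lies between −1.37 and −0.92 on all 3 arrays, whereas SOX10, SOX2 and KLF9 spread from low values on the Cy5 arrays to values near 0 on the Cy3 array.

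The 4 genes that the symbol pattern took in without being such factors gave no call, where 9.19% of all named genes were called. PAX8-AS1 was below 0 on each array at −0.45, −0.33 and −0.86, with a mean of −0.53 ± 0.09 (moderated SE, n = 2) and an adjusted p of 0.0595. That SE leaves out its dye-swap difference of −0.53. Spotted cDNA does not separate the strands, so signal of a gene and its antisense partner is not told apart here. The clone is named only as annotated, since the dog gene table holds 79 of the 82 symbols and none of the 3 noncoding RNAs. THRAP3 gave −0.17, −0.39 and −0.38, SOX9-AS1 had a mean of 0.18 and SOX2-OT of −0.02.

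The dye swap of extraction 2 measured the same RNA in both dyes. Its arrays were averaged before the test, so no SE given here holds the difference between them. Over the 82 genes the median size of the difference between its arrays was 0.14, against 0.17 for all named genes. It was over 0.5 in 8 genes (9.76%, against 7.68% of all named genes): SOX10, SOX2, HOXD12, SIX6, RXRB, RXRA, PPARG and PAX8-AS1. In 7 of these the Cy5 array read lower. RXRA and PPARG each hold 1 spot far below their others on that array, at −2.70 and −2.48, and SOX10 rests on 1 spot. SIX6 read higher in Cy5 and is the 1 gene of the 8 that passed the test. RARB, PBX3 and KLF4 lay close to the line of equal values. The sign differed between the arrays of the swap in 21 of the 82 genes (25.6%), and the share over all named genes was not counted.

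**Figure D4:**
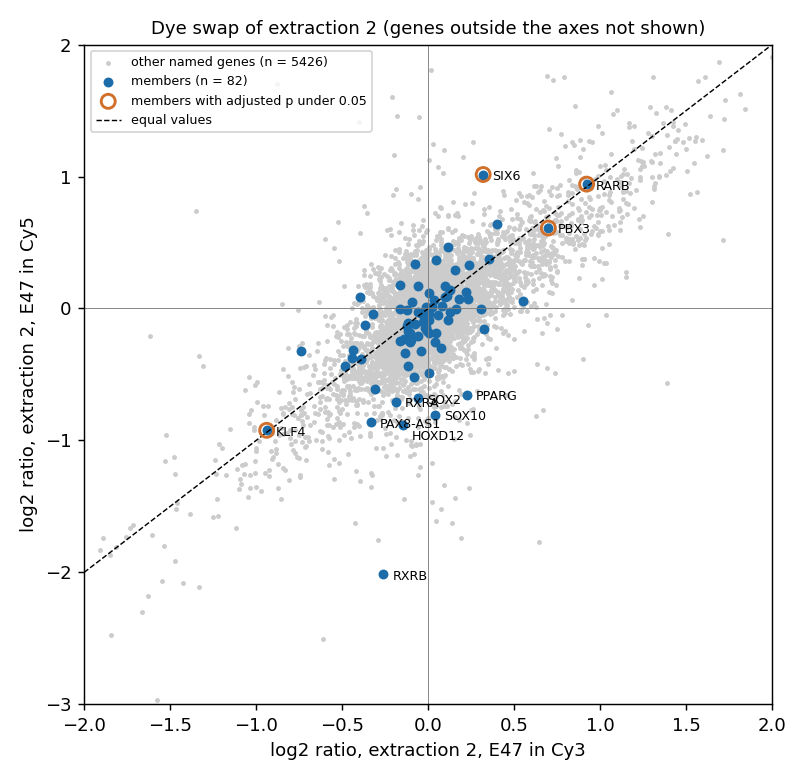
Log2 ratio of extraction 2 with E47 RNA in Cy3 (x axis) against the same RNA in Cy5 (y axis) for the 82 genes (blue) and the other 5426 named genes (grey), with the dashed line of equal values and without genes beyond the axes. RARB, PBX3 and KLF4, circled as genes with an adjusted p under 0.05, lie near the line, SIX6, also circled, lies above it, and RXRB lies far below it at −0.26 and −2.01.

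Of the 82 genes, 63 were measured by 1 clone and 19 by several. In 6 of the 19 the clones differed in sign: DLX4, FOXK2, HOXB6, KLF11, MEIS2 and PAX1. Some of these lay near 0, with the FOXK2 clones at −0.05 and 5.0e-04 and the HOXB6 clone above 0 at 0.03. The clones of genes outside the 82 were not compared. In none of the 19 were clones past 0.5 on both sides of 0. MEIS2 had the widest spread, from −0.23 to 0.96, and PBX3 was the 1 gene of the 4 that passed with more than 1 clone.

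**Figure D5:**
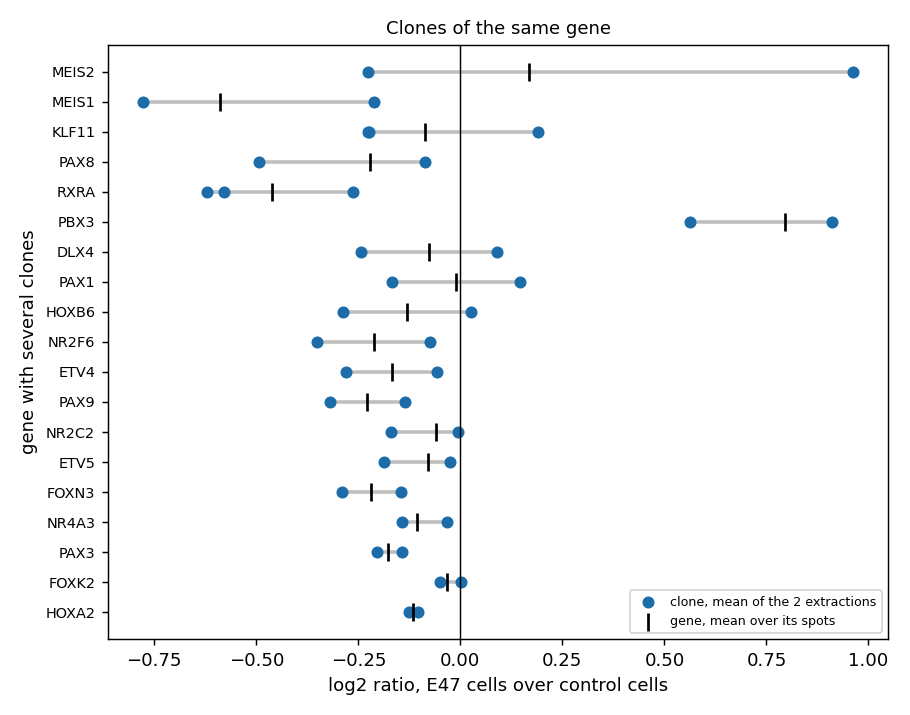
Log2 ratio (E47 cells over control cells, x axis) of each clone, as the mean of the 2 extractions (blue points), for the 19 genes with several clones (y axis, sorted by spread), with a black tick at the mean over all spots of the gene. The PBX3 clones lie at 0.56 and 0.91, and the MEIS2 clones lie on both sides of 0.

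Genes that act with nuclear receptors were looked at as lists. Of 21 measured coregulators, 2 rose and 2 fell, with a list median of 0.0017. The shares over all named genes were 5.34% higher and 3.85% lower. CITED4, a partner of the CBP and p300 coactivators, was at 0.86 ± 0.09 (moderated SE, n = 2), and TBL1XR1, a subunit of the NCOR corepressor complex, at 0.56. HMGA1, an architectural chromatin protein, fell to −0.90 and the corepressor TRIM28 to −0.84. With scaled arrays TBL1XR1 and TRIM28 lost their calls. CITED2, a relative of CITED4, gave −1.95, −0.33 and −1.25, with a mean of −1.37 and an adjusted p of 0.0878. The coactivators NCOA1 at −0.30, CREBBP at −0.28 and EP300 at −0.10 did not pass.

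Of 14 measured genes of retinoid handling and retinoic acid response, 1 rose and none fell in the limma test, with 2 lower at an unadjusted p under 0.05 and a list median of 0.10. Over all named genes 5.34% were called higher and 3.85% lower, and 35.6% had an unadjusted p under 0.05. RAI14, first named as a gene induced by retinoic acid and encoding an actin-binding protein, was at 1.31 ± 0.16 (moderated SE, n = 2), at an adjusted p of 0.0344. CYP26A1, the enzyme that degrades retinoic acid and a sensitive target of its receptors, gave 0.22, −0.04 and 0.20, with an adjusted p of 0.307. RARRES1, another retinoic acid response gene, was at 0.34 with an adjusted p of 0.0962, and the retinal dehydrogenase ALDH1A1 at −0.37 with 0.0854. CRABP2, the carrier that brings retinoic acid to its receptors, was at 0.03.

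Of 16 measured targets of the PPAR, LXR and vitamin D receptors, 3 rose and 1 fell, with a list median of 9.1e-04. Among all named genes 5.34% were called higher and 3.85% lower. FABP3, a fatty acid binding protein, gave 1.42, 1.49 and 1.39, with a mean of 1.43 ± 0.08 (moderated SE, n = 2) and an adjusted p of 0.0194. HADHA, an enzyme of fatty acid oxidation, was at 0.74 and the cholesterol exporter ABCA1 at 0.68; HADHA lost its call with scaled arrays. SREBF1, a lipid synthesis factor and like ABCA1 a target of LXR, fell to −0.91, but its 1 spot read −1.08, 0.14 and −1.63, so the arrays differ in sign, and it lost its call with the 3 arrays taken as separate values. Without the Cy5 array of extraction 2 FABP3 alone kept its call among the targets, and no coregulator and no retinoid gene did.

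Of 14 measured partners of developmental factors none passed, where 9.19% of all named genes did, and the list median was 0.04. SSBP2, which stabilises the LIM-binding complex, gave 1.69, 0.82 and 0.97, with a mean of 1.29 and an adjusted p of 0.0590. LDB2, a LIM-binding protein, was at 0.59 with an adjusted p of 0.0849, and CBFB, the partner of RUNX proteins, at 0.52 with 0.0774. At an unadjusted p under 0.05 the list held 3 genes, against 35.6% of all named genes. With the Cy3 array of extraction 2 left out 2 passed, against 16.7% of all named genes.

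In all 19 symbols had no spot with a value on all 3 arrays and entered no test. Of these, 5 had no value at all: HOXD3, SOX1, SOX3, SOX17 and TBX2. A further 5 had values on 1 array alone, the Cy3 array, among them FOXRED1, an oxidoreductase that is no forkhead factor, and GATA3, the lymphocyte and collecting duct factor, at −1.14. The 8 with values on 2 arrays included FOXA1, an epithelial pioneer factor, at −0.19 and −0.26 on the Cy5 arrays, and ETV2 and HOXC9, whose 2 arrays stood far apart. HOXC10 had values on all 3 arrays from different spots, at 0.31, 0.49 and 0.46.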

How the data were processed

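The 3 arrays are two-colour hybridisations of human cDNA clones. The authors deposited 1 column of log2 ratios per array, with base 2 assumed here. How background was corrected and values normalized, and which way the ratio runs, are left unstated in the sources used here. Log base 10 is not possible, since the largest value, 7.80, is above 4.82, the log10 of a 16-bit range. The Cy5 arrays of the 2 extractions correlated at 0.76, the arrays of the dye swap at 0.65, and extraction 1 with the Cy3 array at 0.58. All are positive, so no sign was turned. Extraction 1 was labelled with Cy5 alone, so an effect of the dye does not cancel in the means, and its size was not tested. Column medians were −0.0051, 0.0027 and 7.7e-04. Cells left blank or marked NULL were taken as missing. Intensities were not used here, so no dim spot was filtered.

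Spots with 1 gene symbol and a value on all 3 arrays were averaged per gene, and the other 8500 complete spots were tested one by one. The dye swap was averaged, which leaves 2 replicates, and limma 3.58.1 (R 4.3.3; lmFit, then eBayes) tested each of the 14008 features against a ratio of 0. The threshold was an adjusted p (Benjamini-Hochberg) of 0.05, the prior degrees of freedom were 2.71 and the residual ones 1. The p-values may leave out the spread of the control cells, whose extractions the array titles do not number. The test was also run on data simulated from its own fitted spread, with independent replicates and no dye effect. That check does not cover dye effects or extractions that share a culture.

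The members and lists were chosen with earlier results of these data known. Named were all members that passed, the 2 largest others of each family, up to 4 passing genes of each further list, symbols that are no factors and genes with clones past 0.5 on both sides; names beyond these were chosen after their values were seen. Figures were drawn with matplotlib 3.10.9.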

Additional observations from a re-analysis of the deposited data

How the results depend on the processing

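The counts of 3 higher and 1 lower were the same 4 genes with centred arrays, spots with a value on any array, the median over spots, clones averaged first and robust eBayes. Scaled arrays also gave 3 and 1, with ETV1 in place of SIX6. Lower members numbered 4 with the 3 arrays as separate values, 6 without the Cy3 array of extraction 2 and 2 with quantile normalization. In these settings 9.76%, 12.2% and 7.32% of members were called, and the share of all named genes moved too, to 18.3%, 16.7% and 11.4% from 9.19%. With genes of 1 symbol tested alone, 5 were higher and 8 lower (15.9%), against 21.3% of all named genes called. Without the Cy5 array of extraction 2 both counts were 0. The median of the members lay between −0.10 and −0.08 in these settings, at −0.11 without replicate 2 and at −0.07 without replicate 1. Leaving out an extraction leaves no residual degree of freedom, so no calls could be counted. Members at 2-fold or more numbered 4, and 6 if the values are natural logarithms. The coregulator list had 4 calls, 7 with 3 separate arrays or with genes of 1 symbol alone, and 0 without the Cy5 array. The retinoid list had 1 call, 2 with 3 separate arrays, 3 with genes of 1 symbol alone and 0 without the Cy5 array. The receptor targets had 4 calls and 1 without the Cy5 array. The partners had 0 calls, 2 with 3 separate arrays and without the Cy3 array, 1 with scaled arrays and with quantile normalization, and 3 with genes of 1 symbol alone. With genes of 1 symbol alone, the spread was estimated from fewer features as well as the p-values adjusted over fewer. Members with an unadjusted p under 0.05 in the limma test then numbered 31, against 25 in the main fit. The share of all named genes was 41.3%, against 35.6%. What caused the changes in any setting was not tested. E47 and control cells are paired within each array, as the ratio tested against 0, so no further paired analysis was made.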

Other observations

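Clones annotated with several symbols stood outside the gene tests. Of 4 clones shared by HOXC4, HOXC5 and HOXC6, 1 gave −0.65 on extraction 1, −0.32 on the Cy3 array of extraction 2 and −0.69 on its Cy5 array, and 1 of its 2 spots passed the limma test over all features, with adjusted p-values of 0.0416 and 0.0642. A further clone of the same cluster gave −0.37, −0.38 and −0.74, with adjusted p-values of 0.0638 and 0.0997, and the other 2 clones had means of −0.10 and 0.01. The clone shared by NR1D1 and THRA, a pair of receptor genes that overlap on opposite strands, gave −0.31, −0.08 and −0.34, with adjusted p-values of 0.124 and 0.181. The clones shared by PPARA and CDPF1 had means of −0.09 and −0.01.

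Just short of the threshold of the limma test, at adjusted p-values from 0.05 to 0.1, lay 10 members, and the share of all named genes in that range was not counted. Of these members ETV1 and NR2C1 were above 0 on all 3 arrays, and SOX9, HOXD12, MEIS1, LHX3, RXRB, RXRA, HNF4G and PAX8-AS1 were below 0 on all 3.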
